A study of Mus musculus with 2 samples.

Results

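The genes described here encode the enzymes of glycolysis, of pyruvate entry into mitochondria and of the tricarboxylic acid (TCA) cycle, together with phosphoglycolate phosphatase. They were taken by symbol from a list of 41 names, and 40 of them were found among the 38817 genes of the table, since ALDOA, the muscle-type aldolase, has no row under that name. The libraries came from matured oocytes. The series concerns meiotic maturation of the pig oocyte, the egg cell, under spermidine, a polyamine that cells make naturally. One library is labelled SPE and is named SPD in the table, read here as spermidine, and the other is labelled control. Each library was made from RNA of a pool of 100 oocytes, and 1 library per group could be matched to a labelled sample. Both samples carry the same label of wild type ICR mouse, and the labels give no dose, treatment time or age. The table, however, lists loci on pig chromosome accessions up to position 315308402, whereas the last gene of the mouse assembly GRCm38 ends at 195291439, so the values were read as those of pig gene models.

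Glycolysis splits glucose into pyruvate in the cytosol. The mitochondrial pyruvate carrier and the pyruvate dehydrogenase complex then bring that carbon into the mitochondrion as acetyl-CoA, and the TCA cycle oxidises it to feed the respiratory chain. Mammalian oocytes are known to use little glucose directly and to draw their energy largely from pyruvate, which the surrounding cumulus cells supply from their own glycolysis.

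Expression is given in FPKM, fragments scaled to transcript length and to the mapped total of the library. This scaling is meant to let levels of different genes be set beside each other within a library. How far it does so here was not tested, and the annotation and the division of reads at shared loci are unknown. The FPKM columns summed to 251829 in the SPE library and 249340 in the control library, and since the columns used hold no read counts, the depth behind single values is unknown. Genes of the mitochondrial chromosome held 65.7% of the sum in the SPE library and 62.7% in the control library. Of 15 oocyte markers 10 averaged at least 1 FPKM, led by OOSP2, an oocyte-secreted protein gene, at 730 FPKM in the SPE library and 904 FPKM in the control library. Of 23 granulosa and cumulus markers found, 5 did so, and the list summed to 14.2 FPKM in the SPE library and 31.6 FPKM in the control library. In this list the gonadotropin receptor gene LHCGR was listed at 0 in both libraries and FSHR was at 0.113 FPKM in the SPE library and 0.195 FPKM in the control library. The inhibin subunit gene INHBB was at 1.28 FPKM in the SPE library and 10.8 FPKM in the control library, and INHBA was at 5.55 FPKM in the SPE library and 9.87 FPKM in the control library. The steroid synthesis gene HSD3B1 was at 0.111 FPKM in the SPE library and 1.90 FPKM in the control library. INHBB and HSD3B1 were at least 2-fold lower in the SPE library among the 5 markers of that level, whose median log2 ratio was -0.73. Of these 5, 1 had a ratio above 0 and 4 below. GREM1 was at 1.22 FPKM in the SPE library and 1.06 FPKM in the control library, and GATA4 was at 3.70 FPKM and 4.13 FPKM. Lower markers went both ways. CYP19A1 was at 0.339 FPKM in the SPE library and 0.264 FPKM in the control library, and STAR was at 0.168 FPKM and 1.27 FPKM. All markers named from this list except INHBA were named after their values were seen. Among markers of theca, stroma and endothelium PECAM1 was highest, at 0.314 FPKM in the SPE library and 0.352 FPKM in the control library. Among those of blood and immune cells CD68 was highest, listed at 0 in the SPE library and at 0.395 FPKM in the control library. The part of carried-over follicle cells in the values below was not tested, and in pooled oocytes fewer cells of a type and less RNA per cell cannot be told apart.

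Transcripts of the pathway were unevenly represented. PGP, DLST, DLAT, PDHA1 and IDH3A together made up 74.9% of the members' summed FPKM in the SPE library and 77.1% in the control library. The 40 genes summed to 75.1 FPKM in the SPE library and 86.3 FPKM in the control library, which is 0.0298% of all FPKM in the SPE library and 0.0346% in the control library. Most of that difference was PGP: without it the other genes summed to 61.0 FPKM in the SPE library and 62.0 FPKM in the control library. Between the libraries, 11 of the 40 genes averaged at least 1 FPKM and were compared. With 1 FPKM added to each value none of these differed by 2-fold. Among all genes of that level 2.85% passed 2-fold as higher with SPE and 2.14% as lower. At such shares 11 genes are too few to tell the members from all genes. Without the added 1 FPKM, ALDOC differed by more than 2-fold, at 2.60 times the control level.

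**Figure D1:**
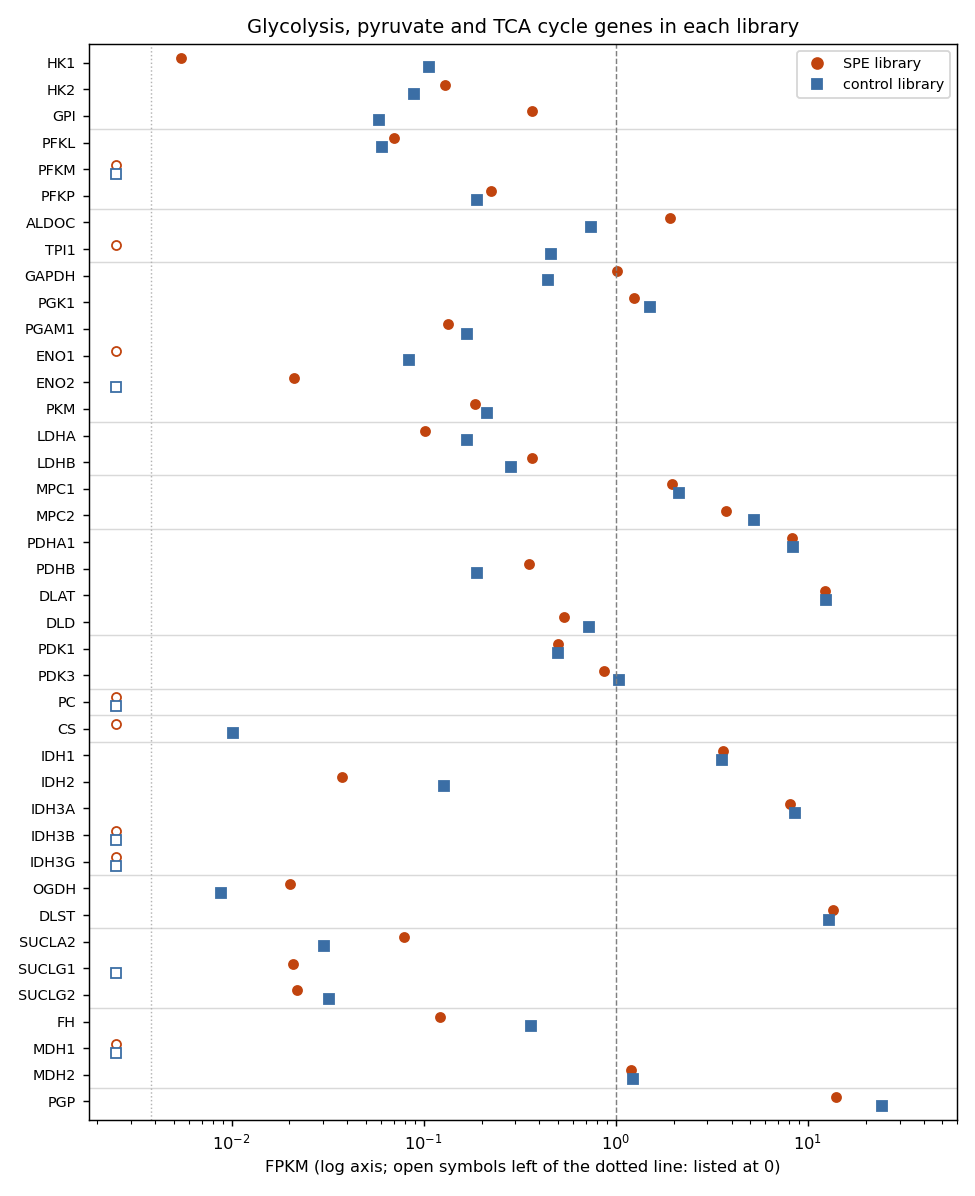
FPKM of the 40 genes in the SPE library (circles) and the control library (squares) on a log axis, ordered by pathway step, with 1 library per group and a dashed line at 1 FPKM. Open symbols left of the dotted line are values listed at 0. Most glycolytic genes lie below 1 FPKM, and PGP, DLST, DLAT, PDHA1 and IDH3A lie highest in both libraries.

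The glycolytic members were low in both libraries. Of the 16 found, 3 reached 1 FPKM in the SPE library and 1 in the control library. This does not hold for every glycolytic enzyme. The glucose-phosphorylating enzyme gene ADPGK, outside the member list, was at 118 FPKM in the SPE library and 139 FPKM in the control library. At the entry step, HK1, the general hexokinase that phosphorylates glucose, was at 0.00547 FPKM in the SPE library and 0.107 FPKM in the control library. HK2, the insulin-responsive hexokinase of muscle and fat, was at 0.129 FPKM in the SPE library and 0.0893 FPKM in the control library. Neither hexokinase came near 1 FPKM. GPI, which converts glucose 6-phosphate to fructose 6-phosphate, was at 0.368 FPKM in the SPE library and 0.0588 FPKM in the control library, at a locus that the table shares with UBA2. Of the phosphofructokinases, which catalyse the committed step, the platelet form PFKP was at 0.223 FPKM in the SPE library and 0.190 FPKM in the control library. The liver form PFKL was at 0.0701 FPKM in the SPE library and 0.0607 FPKM in the control library, and the muscle form PFKM was listed at 0 in both. All 3 phosphofructokinase genes together reached 0.293 FPKM in the SPE library and 0.251 FPKM in the control library.

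ALDOC, the brain-type aldolase that splits fructose 1,6-bisphosphate, was the highest of the 16 glycolytic members in the SPE library. It was at 1.92 FPKM there and at 0.738 FPKM in the control library. Its gene model lies on chromosome 12 (46807780 to 46811676), and no source used here names the build of these positions. TPI1, which interconverts the triose phosphates formed by aldolase, was listed at 0 in the SPE library and at 0.458 FPKM in the control library. Such an entry is no measured absence, because genes that cells use generally, such as MDH1, are also listed at 0 in both libraries.

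In the lower, ATP-forming stretch of the pathway PGK1 and GAPDH were highest. PGK1, the phosphoglycerate kinase (chromosome X, 71339754 to 71351768), was at 1.25 FPKM in the SPE library and 1.51 FPKM in the control library. GAPDH, which oxidises glyceraldehyde 3-phosphate, was at 1.01 FPKM in the SPE library and 0.446 FPKM in the control library. Its row covers 123893 bases and is shared with 12 other rows, among them the chromatin remodeller gene CHD4, so reads could be divided among these genes, and processed copies elsewhere in a genome can take reads too. The other enzymes of this stretch lay below 0.3 FPKM. PGAM1, the phosphoglycerate mutase, was at 0.133 FPKM in the SPE library and 0.167 FPKM in the control library. The ubiquitous enolase gene ENO1 was listed at 0 in the SPE library and at 0.0840 FPKM in the control library, and the neuronal enolase gene ENO2 was at 0.0211 FPKM in the SPE library and listed at 0 in the control library. PKM, the pyruvate kinase that ends glycolysis, was at 0.184 FPKM in the SPE library and 0.212 FPKM in the control library.

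The lactate dehydrogenases interconvert pyruvate and lactate, and the heart-type subunit LDHB was above the muscle-type LDHA in both libraries. LDHB was at 0.368 FPKM in the SPE library and 0.285 FPKM in the control library. LDHA was at 0.101 FPKM in the SPE library and 0.169 FPKM in the control library. The LDHB level was 3.64 times that of LDHA in the SPE library and 1.69 times in the control library, between values whose precision is unknown.

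The genes of pyruvate import and oxidation were led by DLAT and PDHA1, and 5 of the 9 averaged below 1 FPKM. The 9 genes summed to 28.5 FPKM in the SPE library and 30.6 FPKM in the control library. The 16 glycolytic members above summed to 5.78 FPKM in the SPE library and 4.58 FPKM in the control library. The order of these sums depends on which genes were listed as members. The list of other glycolysis genes and regulators, which holds ADPGK, summed to 126 FPKM in the SPE library and 146 FPKM in the control library. MPC1 and MPC2 form the carrier of pyruvate across the inner mitochondrial membrane. MPC2, on chromosome 4 (90745599 to 90767335) at a locus shared with the microRNA gene MIR9810, was at 3.73 FPKM in the SPE library and 5.22 FPKM in the control library. MPC1 (chromosome 1, 3681075 to 3692480) was at 1.97 FPKM in the SPE library and 2.14 FPKM in the control library. MPC2 thus lay above its partner in both, by 1.90 times in the SPE library and 2.43 times in the control library.

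The subunits of the pyruvate dehydrogenase complex differed widely in level, and each kept its place in both libraries. DLAT, the acetyltransferase core (E2) (chromosome 9, 44530186 to 44605405), was at 12.3 FPKM in the SPE library and 12.4 FPKM in the control library. PDHA1, the E1 alpha subunit that is switched off by phosphorylation, was at 8.24 FPKM in the SPE library and 8.38 FPKM in the control library. It lies on chromosome X (16947200 to 17118068) at a locus shared with the kinase gene MAP3K15. PDHB, the partner of PDHA1 in the E1 tetramer, was at only 0.355 FPKM in the SPE library and 0.189 FPKM in the control library. DLD, the shared dihydrolipoamide dehydrogenase (E3), was at 0.540 FPKM in the SPE library and 0.728 FPKM in the control library. The ratio of DLAT to PDHA1 was 1.498 in the SPE library and 1.485 in the control library.

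Among the regulators and the side branch of this step, PDK3 and PDK1, kinases that inactivate PDHA1, were near or below 1 FPKM. PDK3 was at 0.864 FPKM in the SPE library and 1.03 FPKM in the control library. PDK1 was at 0.503 FPKM in the SPE library and 0.497 FPKM in the control library. PC, pyruvate carboxylase, which refills the cycle with oxaloacetate, was listed at 0 in both.

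**Figure D2:**
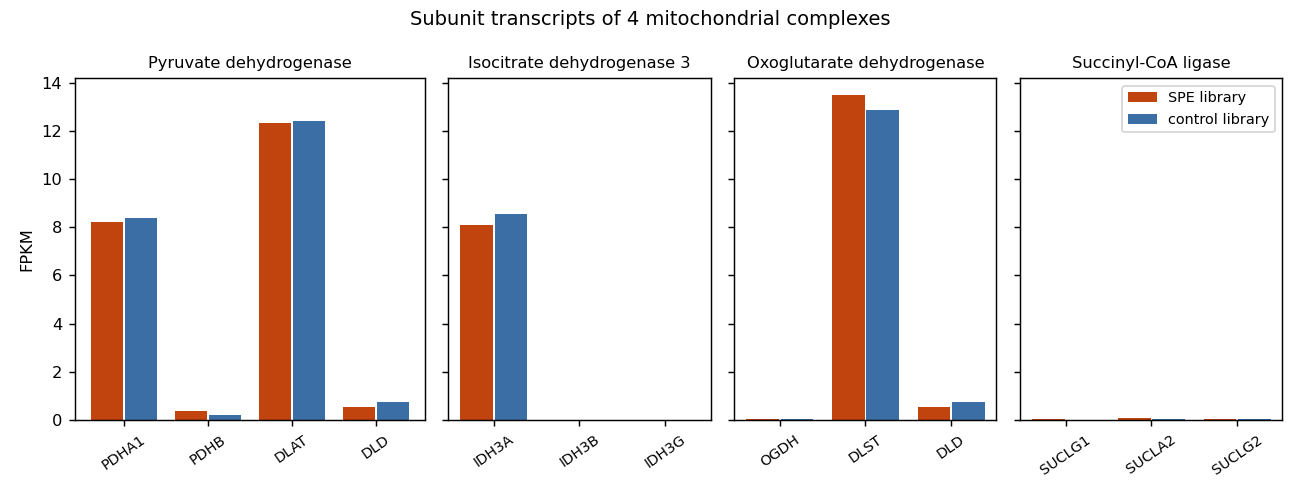
FPKM of the subunit genes of 4 mitochondrial enzyme complexes, with a bar for the SPE library to the left of a bar for the control library (1 library each, no error bars possible). DLAT, PDHA1, IDH3A and DLST stand between 8.09 and 13.5 FPKM, whereas the other subunits plotted (PDHB, DLD, IDH3B, IDH3G, OGDH and those of succinyl-CoA ligase) stand below 1 FPKM or are listed at 0 in both libraries.

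Levels within the TCA cycle were uneven too, and its 14 genes summed to 26.7 FPKM in the SPE library and 26.8 FPKM in the control library. DLST, the succinyltransferase core of the oxoglutarate dehydrogenase complex (chromosome 7, 103935074 to 103955180), was at 13.5 FPKM in the SPE library and 12.9 FPKM in the control library, close to the level of DLAT, the corresponding core in the pyruvate complex. OGDH, the E1 subunit of the same complex, was at 0.0202 FPKM in the SPE library and 0.00876 FPKM in the control library. IDH3A, the catalytic subunit of the NAD-dependent isocitrate dehydrogenase (chromosome 7, 53312283 to 53330719), was at 8.09 FPKM in the SPE library and 8.58 FPKM in the control library. Its partner subunits IDH3B and IDH3G were listed at 0 in both libraries. Of the NADP-dependent isoenzymes, the cytosolic IDH1 (chromosome 15, 122861672 to 122883887) was at 3.61 FPKM in the SPE library and 3.59 FPKM in the control library. The mitochondrial IDH2 was at 0.0375 FPKM in the SPE library and 0.128 FPKM in the control library.

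The remaining cycle enzymes were low apart from MDH2. MDH2, the mitochondrial malate dehydrogenase (chromosome 3, 9953279 to 9965866), was at 1.21 FPKM in the SPE library and 1.23 FPKM in the control library, and its cytosolic counterpart MDH1 was listed at 0 in both. CS, citrate synthase, which starts the cycle, was listed at 0 in the SPE library and at 0.0101 FPKM in the control library. Fumarase, encoded by FH, was at 0.122 FPKM in the SPE library and 0.363 FPKM in the control library. The succinyl-CoA ligase genes were lower still. The ATP-forming beta subunit gene SUCLA2 was at 0.0793 FPKM in the SPE library and 0.0303 FPKM in the control library. The GTP-forming beta subunit gene SUCLG2 was at 0.0218 FPKM in the SPE library and 0.0323 FPKM in the control library. Their shared alpha subunit gene SUCLG1 was at 0.0208 FPKM in the SPE library and listed at 0 in the control library.

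PGP removes phosphoglycolate, a by-product of glycolytic enzymes, and it was the highest of the 40 genes in both libraries. It was at 14.04 FPKM in the SPE library and 24.2 FPKM in the control library, which places it at rank 843 of all genes in the SPE library and rank 555 in the control library. Its gene model spans 2842 bases on chromosome 3 (42401344 to 42404185), and no other row of the table overlaps it. In the SPE library PGP was level with DLST (1.04 times), whereas in the control library it was at 1.88 times the level of DLST.

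Zeros and low values were common among these genes, though less so than among all genes with an established symbol. Of the 40 genes 5 were listed at 0 in both libraries, a smaller share than the 30.9% of the 14922 genes with an established symbol. A further 3 were listed at 0 in the SPE library only and 2 in the control library only. Averages of 1 FPKM or more were reached by 27.5% of the 40 genes and by 20.3% of those with an established symbol. By pathway section this was 2 of 16 for glycolysis, 4 of 9 for pyruvate entry and 4 of 14 for the TCA cycle, and PGP. A locus was shared with other rows by 11 of the 40 genes, and no source used here says how reads were divided there.

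The comparison the series implies is between oocytes matured with and without spermidine. It was made as log2((SPE + 1) / (control + 1)) with 1 FPKM added to each value, which understates differences of low genes. With 1 matched library per group there is no replicate error and no test here, and each difference compares these libraries only. The table also holds columns named Con2 and SPD2, which may be further libraries of these groups. They match none of the samples used here and were not analysed, so whether any difference recurs in them is not known. None of the 11 members averaging at least 1 FPKM was 2-fold higher or lower in the SPE library. Over all 4391 genes of that level, 2.85% were at least 2-fold higher and 2.14% at least 2-fold lower. The members' median log2 ratio was -0.02, and that of all 4391 genes was -0.04. Of the members 3 had a ratio above 0 and 8 below, against 1957 above and 2434 below among all genes. The ratios of DLAT, PDHA1, MDH2 and IDH1 lay so near 0 that their sign turned under other scalings.

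**Figure D3:**
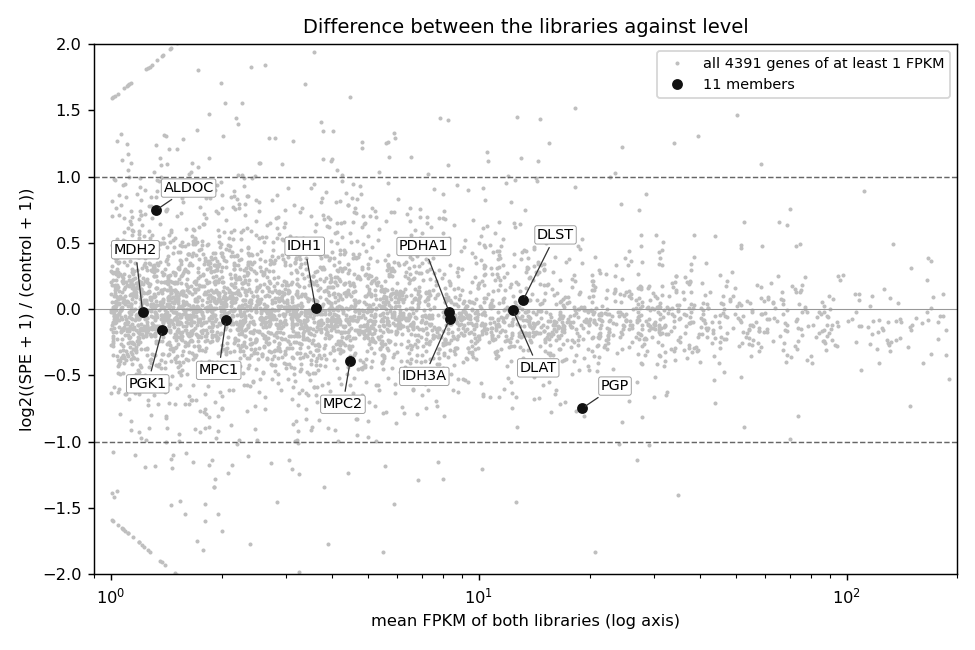
Log2((SPE + 1) / (control + 1)) of each gene against its mean FPKM (log axis); grey points are all genes averaging at least 1 FPKM, black points the 11 members, and dashed lines mark 2-fold. ALDOC (0.75) and PGP (-0.75) lie farthest from 0 among the members, inside the dashed lines, and 115 grey points fall outside the plotted range.

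ALDOC and PGP were the members past 1.5-fold, a rule that 7.54% of all genes met as higher in the SPE library and 5.67% as lower. ALDOC had a log2 ratio of 0.75, and without the added 1 FPKM its level in the SPE library was 2.60 times that in the control library. Among the 1316 genes averaging 1 to 2 FPKM, where the robust SD of the ratio was 0.32, 7.07% had a ratio as high or higher. ALDOC would also count as 2-fold higher with 0.1 FPKM added instead (1.27) or on the TPM scale (1.12). The TPM scale multiplies each library by a constant that makes its values larger, while the added 1 and the minimum of 1 stay the same. It therefore acts much as a smaller added value does, here and for the genes below, and is no separate support.

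PGP had a log2 ratio of -0.75, and its level in the control library was 1.73 times that in the SPE library. Among the 641 genes averaging 10 to 30 FPKM, where the robust SD was 0.21, 2.18% had a ratio as low or lower. Short gene models varied more. At 10 FPKM or more, 13 of 261 genes with a locus under 3 kb (4.98%) were as low as PGP, against 5 of 836 longer ones (0.598%). These are positions among genes of 1 pair of libraries and not an error of PGP itself. The summed FPKM of the granulosa and cumulus markers was also lower in the SPE library, at 14.2 FPKM against 31.6 FPKM in the control library. Within that sum INHBB, over a gene model of only 349 bases, was at 1.28 FPKM against 10.8 FPKM, and not every marker was lower. The part of carried-over follicle cells in the value of PGP was not tested.

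MPC2 followed with a log2 ratio of -0.39, and 10.7% of the 1297 genes from 2 to 5 FPKM were as low or lower. The other 8 members lay within 0.2 of 0. DLAT was at -0.01, PDHA1 at -0.02, MDH2 at -0.02, IDH1 at 0.01, DLST at 0.07, IDH3A at -0.08, MPC1 at -0.08 and PGK1 at -0.16. All 8 lie inside the middle 50% of all genes, which runs from -0.20 to 0.18. Below an average of 1 FPKM 12 members were higher in the SPE library, 12 were lower and 5 were listed at 0 in both, and no ratio is drawn from these low values.

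Other genes of central carbon metabolism were described in the same way from 7 lists of 70 names, of which 62 were found and 18 averaged at least 1 FPKM. None of the 18 was 2-fold higher or lower in the SPE library on the log2(FPKM + 1) scale, and their median log2 ratio was 0.09. Of the 18, 11 had a ratio above 0 and 7 below.

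In the glucose branch, ADPGK stood far above both hexokinases. This ADP-dependent glucokinase was at 118 FPKM in the SPE library and 139 FPKM in the control library (log2 ratio -0.23), and no row shares its locus. BPGM, which makes 2,3-bisphosphoglycerate, was at 7.18 FPKM in the SPE library and 6.63 FPKM in the control library. The general glucose transporter gene SLC2A1 was at 6.53 FPKM in the SPE library and 5.08 FPKM in the control library (0.31), and SLC2A2, SLC2A3 and SLC2A4 were listed at 0 in both. All 5 found genes of gluconeogenesis lay below 0.1 FPKM, with G6PC3 listed at 0 in the SPE library and at 0.0801 FPKM in the control library. RPIA of the pentose phosphate pathway was at 5.69 FPKM in the SPE library and 4.29 FPKM in the control library (0.34), whereas the transketolase gene TKT was at 1.19 FPKM in the SPE library and 1.305 FPKM in the control library (-0.07).

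For monocarboxylates, SLC16A1, the transporter MCT1 that carries pyruvate and lactate across the plasma membrane, was at 2.25 FPKM in the SPE library and 0.655 FPKM in the control library. Its log2 ratio of 0.97 was the highest of the 18, and without the added 1 FPKM the SPE level was 3.44 times the control level. It would pass 2-fold with 0.1 FPKM added instead (1.64), on the TPM scale (1.45), after centring on the median of all genes (1.01) and when scaled without mitochondrial and ribosomal RNA rows (1.005). With 0.1 FPKM added, 238 of all 4391 genes were at least 2-fold higher and 168 at least 2-fold lower. SLC16A1 was named as an extreme of its list. BSG, the chaperone of that transporter, was at 1.67 FPKM in the SPE library and 0.952 FPKM in the control library (0.45); as neither an extreme of its list nor its highest gene, it was named after its value was seen.

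Around pyruvate dehydrogenase and the TCA cycle, PDHX, which anchors DLD to the DLAT core, was at 2.16 FPKM in the SPE library and 1.59 FPKM in the control library (log2 ratio 0.28). PDP2, a phosphatase that reactivates the complex, was at 1.80 FPKM in the SPE library and 3.08 FPKM in the control library (-0.54). Succinate dehydrogenase links the cycle to the respiratory chain. Its membrane anchor gene SDHC was at 3.22 FPKM in the SPE library and 3.003 FPKM in the control library (0.08), and the other anchor gene, SDHD, was at 1.83 FPKM in the SPE library and 0.755 FPKM in the control library (0.69). SDHD would pass 2-fold with 0.1 FPKM added instead (1.17) and on the TPM scale (1.03). Of the shuttles that carry reducing power into mitochondria, the aspartate-glutamate carrier gene SLC25A13 was at 3.15 FPKM in the SPE library and 3.30 FPKM in the control library (-0.05). The oxoglutarate-malate carrier gene SLC25A11, over a locus of 3094 bases, was at 1.93 FPKM in the SPE library and 4.34 FPKM in the control library, and its log2 ratio of -0.86 was the lowest of the 18. It too would pass 2-fold with 0.1 FPKM added instead (-1.13) and on the TPM scale (-1.09).

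**Figure D4:**
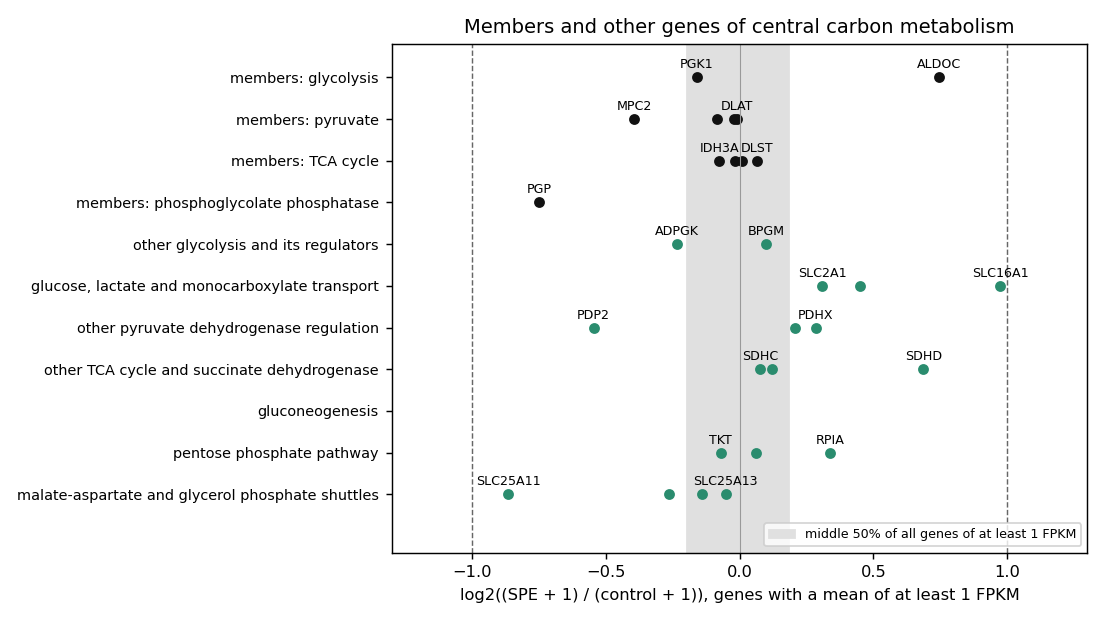
Log2((SPE + 1) / (control + 1)) of the genes averaging at least 1 FPKM, for the members by pathway section (black) and 7 other lists (green), with the lowest and highest gene of each named. The grey band holds the middle 50% of all 4391 genes and dashed lines mark 2-fold; SLC16A1 (0.97) and SLC25A11 (-0.86) lie nearest the lines, and the gluconeogenesis list has no gene of that level.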

How the data were processed

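RNA of pooled oocytes was sequenced on an Illumina HiSeq from NEB Ultra libraries, per the labels' protocols. The authors deposited FPKM values, fragments scaled to transcript length and mapped total, per the file's name. The submitters' processing notes name Bowtie2 2.2.5, RSEM and build mm9, whereas the loci are on pig accessions. No source used here names the program, annotation and build behind the table. FPKM is relative, so a gene group that takes more of a library lowers the rest.

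Columns were matched to samples by name and number. 2 further value columns (Con2, SPD2) fit no sample in use and were left out, although their names point to the same groups. Start positions were raised by 1 to count from 1. Whole reads were not recovered: the SPE to control ratio of the 5128 genes from 0.005 to 0.3 FPKM was most often near 1.03, but 4.84% held it to a tolerance of 0.001 (relative).

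Log2 ratios used a pseudocount of 1 FPKM and a minimum mean of 1 FPKM. The robust SD is the scaled median absolute deviation. All members found are named, and of each other list the highest gene and the genes with extreme ratios. Members and lists were chosen with earlier results of these data known. The calculation was run on simulated data with planted changes larger than 2-fold in genes well above 1 FPKM. That run checks the code and does not bear on low genes or on smaller differences. Alternatives changed the pseudocount, minimum, scaling, fold rule, shared loci and zeros. Python 3.11.15, pandas 2.3.3 and numpy 2.4.6 were used.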

Additional observations from a re-analysis of the deposited data

How the results depend on the processing

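With 1 library per group the results rest on single values, the depth behind them is unknown, and the alternatives reuse the same libraries, so a result that holds across them has no independent support. Among the members, the number higher by 2-fold was 0 as reported and 1 of 11 with a pseudocount of 0.1 FPKM. On the TPM scale it was 1 of 17, and the gene is ALDOC in both. Over all genes, 238 of 4391 were higher with that pseudocount and 612 of 7712 on the TPM scale. Against such shares 1 higher member does not tell the members from all genes. The 1.5-fold rule gave 1 member higher and 1 lower. The members' median log2 ratio was -0.02 as reported, -0.07 under upper quartile scaling, 0.015 after centring and 0.012 when scaled without mitochondrial and ribosomal RNA rows. PGP stayed between -0.80 and -0.62 and ALDOC between 0.27 and 1.27. Among the 18 other genes, a pseudocount of 0.1 FPKM gave 2 higher and 1 lower, the TPM scale gave 2 higher and 2 lower of 21 genes, centring and scaling without those rows gave 1 higher each, and the 1.5-fold rule gave 2 higher and 1 lower. Their median of 0.09 became -0.23 with a minimum of 10 FPKM, where ADPGK alone was left. Over all 4391 genes the counts of 125 higher and 94 lower became 238 and 168 with a pseudocount of 0.1 FPKM, 23 and 15 with 5 FPKM, 113 and 109 under upper quartile scaling, 140 and 89 after centring and 139 and 86 when scaled without those rows. They became 612 and 444 of 7712 genes on the TPM scale, 226 and 158 of 17607 with no minimum, and 17 and 7 of 1097 with a minimum of 10 FPKM. Of 4318 genes above 0 in both libraries 87 were higher and 59 lower. No paired analysis was possible because each group has 1 matched library, the columns Con2 and SPD2 being unmatched.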
